A study of Homo sapiens and Mus musculus with 7 samples.

Results

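The interferon-stimulated genes described here are 40 genes that interferon induces in many cell types, among them the IFIT, OAS and MX families, ISG15 and its conjugating enzymes, and the interferon-inducible parts of antigen processing. A member was taken from every probe set whose only annotated symbol was on the list, with case ignored for mouse. The human arrays held 39 of the 40 members on 63 probe sets, of 19775 annotated genes. The mouse arrays held 30 on 51 probe sets, of 18193 genes, and 29 members were found in both tables. STAT2 was matched on the mouse arrays alone. IFI16, IFIT5, OAS1, OASL, HERC5, IFI6, TRIM22, SAMD9, ISG15 and IFI44 were matched on the human arrays alone.

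The arrays set cells with a knockdown of FAS, and a liver with Fas knocked out, against controls. Fas (CD95) is a death receptor of the cell membrane. HeyA8, a human ovarian cancer cell line, carried a stable FAS knockdown by shRNA4, a stable FAS knockdown by shRNA6, or the pLKO control, and pLKO is a lentiviral vector for such hairpins. HepG2, a liver cancer line from a human, carried the same shRNA6 or the pLKO control. The mouse liver samples were male Fas knock-out and male wild-type C57/BL6, each aged 2 months. Each of the 7 groups held 1 array, so differences within a comparison have no replicate check and no test, and precision is limited by how few arrays there are. The labels do not say whether the stable lines were clones or pools, or how many animals gave a liver sample.

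Type I interferons bind the receptor pair IFNAR1 and IFNAR2, whose kinases JAK1 and TYK2 phosphorylate STAT2. STAT2 and IRF9 are parts of the complex ISGF3, which binds the interferon-stimulated response element (ISRE) in the promoters of interferon-stimulated genes. Type II interferon acts through its own receptor and the gamma-activated site (GAS). Many of these genes also have a basal level without added interferon, kept by tonic signalling through the same relay, and hepatocytes and the macrophages of the liver both express them.

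The promoters are shown because the members are defined by their response to interferon. RefSeq promoters (build GRCh38.p14, from 250 bases before to 50 after the start) were matched for 33 of the 40 members. The core letters of an ISRE, GAAA, any 2 bases and GAAA, were found on either strand in 23 of those 33 genes (69.7%), against 1195 of 27305 genes of the table (4.38%). The letters of a GAS, TTC, any 3 bases and GAA, were found in 11 of 33 members (33.3%), against 2560 of 27305 genes (9.38%). Both motifs were found in 7 members, and they overlapped in BST2, IFI27 and MX1. Neither was found within these windows in HERC6, IFI16, PSMB9, STAT2, UBE2L6 and XAF1. IFIT2, IRF7, MX2, OAS2, OASL, TRIM22 and USP18 were not in the table.

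The members printed below recur in the comparisons that follow, and capitals mark the ISRE letters on either strand. IFIT1 and IFIT3 encode binding proteins of viral RNA, IFIH1 the RNA sensor MDA5, OAS3 an RNA-activated synthetase, ISG15 a ubiquitin-like modifier, and PSMB8 a subunit of the immunoproteasome. IFI44L and IFI6 carry repeated copies of the motif. The whole promoter is given for IFIT1 and 50 bases for the others, each read along the strand of its gene.
IFIT1 (chr10:89392373-89392672, plus strand): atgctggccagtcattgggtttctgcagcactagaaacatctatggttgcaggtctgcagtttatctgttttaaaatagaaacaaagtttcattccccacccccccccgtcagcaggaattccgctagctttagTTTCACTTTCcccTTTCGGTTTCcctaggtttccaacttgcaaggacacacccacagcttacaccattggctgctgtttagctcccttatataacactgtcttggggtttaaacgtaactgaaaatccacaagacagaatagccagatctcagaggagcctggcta
IFIT3 (chr10:89332458-89332507, plus strand): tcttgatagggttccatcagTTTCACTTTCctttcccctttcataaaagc
IFIH1 (chr2:162318676-162318725, minus strand): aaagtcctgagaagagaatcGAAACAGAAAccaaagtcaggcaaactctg
OAS3 (chr12:112938442-112938491, plus strand): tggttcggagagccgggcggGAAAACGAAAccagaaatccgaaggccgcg
ISG15 (chr1:1013370-1013419, plus strand): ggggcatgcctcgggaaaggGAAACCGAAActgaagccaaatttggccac
IFI44L, farther copy (chr1:78620264-78620313, plus strand): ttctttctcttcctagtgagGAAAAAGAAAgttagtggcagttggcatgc
IFI44L, nearer copy (chr1:78620355-78620404, plus strand): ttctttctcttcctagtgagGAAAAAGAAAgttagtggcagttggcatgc
IFI6 (chr1:27672278-27672327, minus strand): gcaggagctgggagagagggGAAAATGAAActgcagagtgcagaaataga
PSMB8 (chr6:32844022-32844071, minus strand): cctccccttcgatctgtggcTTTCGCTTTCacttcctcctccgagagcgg
The 50 bases of the IFI44L copies are the same letters, and in PSMB8 the match spans the annotated start. The ISG15 stretch also holds an overlapping match, GAAAGGGAAA, from 113 bases before the start, whose first letters are not in capitals. Over all members the first base of a match lay between 196 bases before and 23 after a start. A match describes letters in a window and was not measured as a bound site in these samples.

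The deposited values were MAS5 signal intensities, brought by the authors to the same trimmed mean on every array, with array medians between 58.0 and 63.5 in the human cells and between 75.4 and 80.1 in the livers. FAS was lower on every knockdown array than on its control, at a signal of 1184 with shRNA4 and 856 with shRNA6 against 2104 with pLKO in HeyA8, and at 631 with shRNA6 against 1087 with pLKO in HepG2. Mouse Fas was at 169 in the knock-out and 560 in the wild-type liver, and the labels do not place its probe set inside or outside the deleted stretch. HepG2 had all 8 measured hepatocyte markers above the array median, and HeyA8 had 5 of 7 ovarian epithelial markers above it but not CDH1 or MUC16. HepG2 had 6 of the same 7 ovarian markers above the median of at least 1 array, so these do not tell the lines apart. Ratios below are log2 ratios of signal plus a pseudocount of 12.6 (human) or 20.6 (mouse), a scale that makes differences of dim genes look smaller. Kept genes are those above the array median on 1 or more of the arrays compared.

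The members first differed by cell line. In HeyA8 32 of 39 members were above the median of at least 1 array and 28 on all 3 arrays, and in HepG2 27 and 24 of 39 (on both arrays). Over all 19775 genes, 12155 were above the median of at least 1 HepG2 array. For the HeyA8 shRNA4 and pLKO arrays it was 12167 genes, with 32 members among them. BST2, IFI27, MX1, MX2, OAS1, RSAD2 and XAF1 were below the median on every HeyA8 array. DDX60, HERC5, HERC6, IFI16, IFI27, IFI44, IFI44L, IFIT2, IRF7, OAS2, RSAD2 and SAMD9 were below it on both HepG2 arrays. RSAD2, the antiviral enzyme viperin, and IFI27 were thus below the median on every human array.

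IFI16, a DNA-binding protein of the nucleus, showed the widest gap. Its signal was 5441 with shRNA4, 5818 with shRNA6 and 7289 with pLKO in HeyA8, and 21.3 with shRNA6 and 3.79 with pLKO in HepG2. SAMD9, a restriction factor of poxviruses, was at 828, 865 and 899 on the same HeyA8 arrays and at 4.97 and 6.07 on those of HepG2. BST2, the membrane protein tetherin that holds budding virions at the cell surface, stood the other way, at 5.93, 4.37 and 3.64 in HeyA8 and at 986 and 934 in HepG2. The cell lines did not overlap in these genes, but the genes were picked for their wide gaps. The share of all genes without overlap between the lines was not counted.

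By limma, fitted on all 5 human arrays with cell line and knockdown as terms, 23 of 37 members tested differed between HeyA8 and HepG2, of all genes 58.0%, so the share of members is near that of the array as a whole. Of these, 13 were higher in HeyA8 (28.0% of all genes) and 10 lower (30.0%). At an unadjusted p under 0.05 there were 26 members and 62.2% of all genes. On the log2 scale IFI16 was 7.99 ± 0.29 higher (SE, 5 arrays, adjusted p = 2.41e-07), SAMD9 5.61 ± 0.23 higher and HERC5, a ligase for ISG15, 4.74 ± 0.31 higher. Others higher in HeyA8 were IFI44 at 4.01, IFIT2 at 3.58, DDX60, a helicase that aids RNA sensing, at 3.40, TRIM22 at 2.89, IFIT3 at 2.61, HERC6 at 2.31 and IRF7 at 2.09, with TRIM21, IFIT5 and EIF2AK2 between 0.55 and 1.66. BST2 was lower in HeyA8, at -5.84 ± 0.33 (adjusted p = 2.66e-06). So were MX2, a GTPase that blocks retroviral capsids, at -4.71, USP18, which removes ISG15 from proteins and dampens the interferon receptor, at -3.17, OAS1 at -2.57, XAF1 at -1.94, the peptide transporter subunit TAP1 at -1.89 and MX1, the influenza-restricting GTPase, at -1.75, with IFIH1, IFI35 and ISG15 between -1.16 and -0.76. The families were split: IFIT2, IFIT3 and IFIT5 were higher in HeyA8, MX1, MX2 and OAS1 lower, and OAS2, OAS3, OASL and IFIT1 did not pass. The OAS3 difference had a 95% interval from -0.67 to 0.38. EIF2AK2, IFI35, IFIH1, IFIT5, ISG15, MX1, OAS1 and XAF1 lost the call without the HepG2 shRNA6 array, where 16 members passed. The arrays of a line differ in knockdown and hairpin and are not replicate cultures of 1 condition, so these p-values measure the spread between such arrays.

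**Figure D1:**
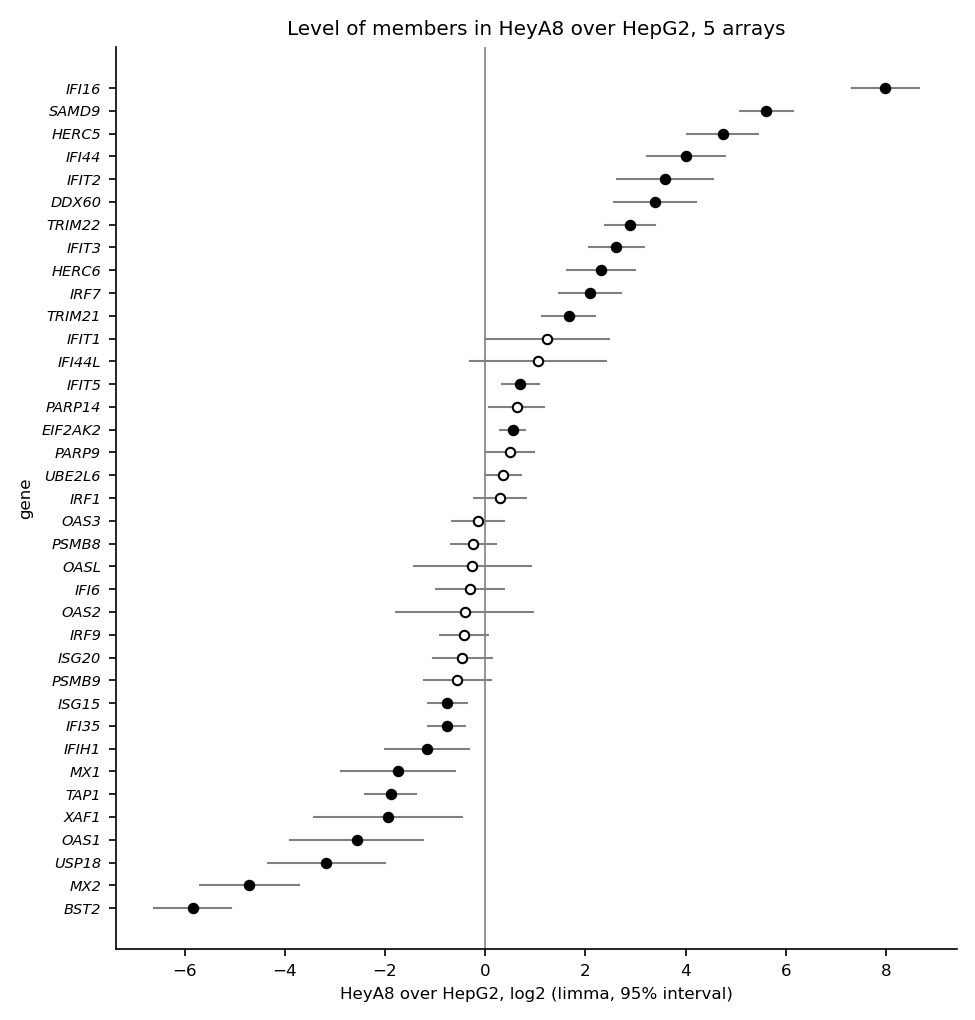
Difference between HeyA8 and HepG2 for 37 interferon-stimulated genes, as the limma estimate over 5 arrays on the log2 scale (x axis) with its 95% interval, 1 gene per row. Filled points passed an adjusted p of 0.05 and open points did not, and the genes run from IFI16 at 7.99 to BST2 at -5.84.

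In HeyA8 with shRNA4, IFIT1, IFIT2 and OAS2 were at least 2-fold lower than with pLKO and USP18 at least 2-fold higher. These were 3 of 32 kept members lower (2.38% of 12167 kept genes) and 1 higher (2.37%). OASL and ISG20 joined the lower members at 1.5-fold, which made 5 of 32 (6.71% of all genes) against 1 higher (6.21%). In all 22 of the 32 were below 0 (46.6% of all genes) and 10 above (53.4%). The median of the members was -0.18, against 0.03 over all genes. OAS2 and OASL had passed the filter through the pLKO array alone and USP18 through the shRNA4 array alone, so that these had to differ. With no filter on low values 25 of all 39 members were below 0 (47.4% of all genes), at a median of -0.17.

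In HeyA8 with shRNA6, OAS2, IFIH1 and IFI44L were at least 2-fold lower and USP18 at least 2-fold higher, again 3 of 32 (2.18% of 12143 kept genes) and 1 of 32 (2.01%). At 1.5-fold 7 were lower (6.21% of all genes), with IFI6, IFIT2, OASL and OAS3 added, and 1 higher (4.66%). Of the 32 members 30 were below 0 (48.8% of all genes) and 2 above (51.2%), the exceptions being USP18 and, at 0.03, IFIT5. The median of the members was -0.33, against 0.01 over all genes. Here OAS2, OASL and IFI44L had passed through the pLKO array alone and USP18 through the shRNA6 array alone, so the 2-fold counts rest largely on the filter. With no filter 34 of all 39 members were below 0 (49.6% of all genes), at a median of -0.32. The hairpin comparisons share the pLKO array, so a low or high value on that array enters both.

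**Figure D2:**
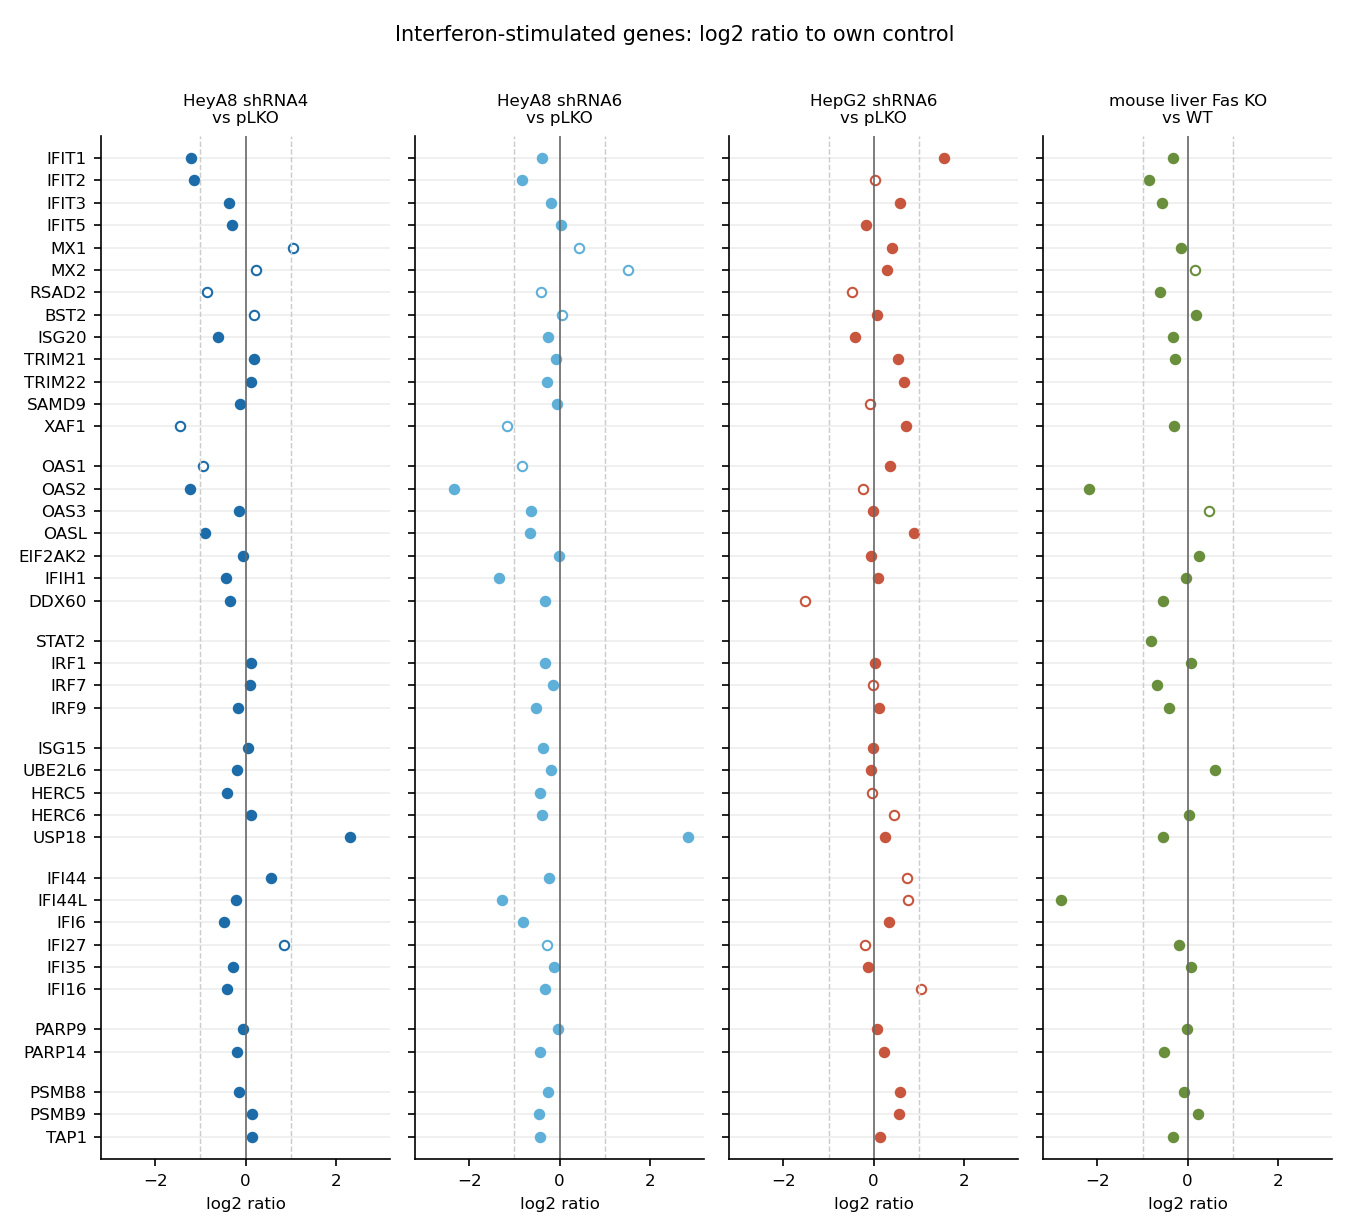
Log2 ratio of each interferon-stimulated gene to its own control (x axes) in the comparisons of HeyA8 shRNA4, HeyA8 shRNA6, HepG2 shRNA6 and Fas knock-out mouse liver, 1 gene per row, grouped by role. Filled points were kept and open points lay below the array median on both arrays, and dashed lines mark a 2-fold difference. Most filled points lie left of 0 in HeyA8 with shRNA6 (30 of 32) and right of 0 in HepG2 (20 of 27).

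Among the RNA-binding and antiviral effectors of HeyA8, 6 of 8 kept members were below 0 with shRNA4, at a median of -0.34, and 7 of 8 with shRNA6, at -0.22. IFIT1 was at 99.5 with shRNA4 and 184 with shRNA6, against 246 with pLKO, log2 ratios of -1.21 and -0.40. IFIT2, its partner in the IFIT complex, was at 123 and 155, against 287, log2 ratios of -1.14 and -0.84. ISG20, a 3′ exonuclease that degrades viral RNA, was at 100 and 131, against 159, log2 ratios of -0.61 and -0.26. In each of these genes the control was the highest of the 3 arrays and shRNA4 the lowest. IFIT3 had log2 ratios of -0.38 and -0.19, with -0.53 and -0.24 from its second kept probe set. TRIM21, a cytosolic antibody receptor, TRIM22 and SAMD9 lay between -0.27 and 0.18 with either hairpin. The other kept probe set of SAMD9 gave -0.66 with shRNA4 and 0.33 with shRNA6. IFIT5 was at -0.30 and 0.03, where its other probe set gave 0.21 and 0.33.

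All 6 kept RNA sensors and RNA-activated enzymes were below 0 with each hairpin, of all genes 46.6% with shRNA4 and 48.8% with shRNA6. The medians were -0.39 with shRNA4 and -0.65 with shRNA6. With each hairpin OAS2 and OASL were kept through the pLKO array alone and had to be below 0. OAS2, a synthetase of the oligoadenylates that activate RNase L, was at 27.7 with shRNA4 and 6.19 with shRNA6, against 82.7 with pLKO, log2 ratios of -1.24 and -2.34. OAS2 was kept through the control array alone, and its other probe sets, dim on every array, gave 0.95 and -0.74 with shRNA6. OASL, a relative without synthetase activity, was at 29.8 and 37.9, against 67.1, log2 ratios of -0.91 and -0.66, with -0.48 and -0.78 from its second probe set. That control signal is close to the array median of 61.1. OAS3 was at 290 and 202, against 322, log2 ratios of -0.14 and -0.64. IFIH1 was at 131 and 63.4, against 182, log2 ratios of -0.44 and -1.35, so that shRNA6 alone was more than 1.5-fold lower. EIF2AK2, the kinase PKR, which halts translation when it binds double-stranded RNA, stood at 1722 and 1759, against 1779, a log2 ratio within 0.05 of 0 with each hairpin, although its weaker probe sets gave -0.42 and -0.66 with shRNA4. DDX60 was at 251 and 252, against 320.

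For the transcription factors and the antigen processing genes the medians lay on opposite sides of 0 with the hairpins. The transcription factors IRF1, IRF7 and IRF9 had a median of 0.09 with shRNA4 and -0.32 with shRNA6, where all 3 were below 0. IRF9, the DNA-binding part of ISGF3, was at 313 with shRNA4 and 245 with shRNA6, against 355 with pLKO. The antigen processing genes PSMB8, PSMB9 and TAP1 had a median of 0.14 with shRNA4 and -0.42 with shRNA6. TAP1 was at 240 with shRNA4 and 158 with shRNA6, against 216 with pLKO, and PSMB9 at 194 and 125, against 176. The ISG15 group had a median of 0.05 with shRNA4 and -0.37 with shRNA6. It includes USP18, which was kept through the knockdown arrays alone and had to be above 0. The side of the shRNA4 median rests on USP18, so nothing is read from it. In that group ISG15 was at 570 with shRNA4 and 424 with shRNA6, against 551 with pLKO, and HERC5 at 347 and 339, against 466. The conjugating enzyme UBE2L6 had a log2 ratio of -0.19 with each hairpin.

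USP18 stood against the rest. Its only probe set was at 77.0 with shRNA4 and 117 with shRNA6, against 5.49 with pLKO, log2 ratios of 2.31 and 2.84. It was kept through the knockdown arrays alone, and the gene has near-identical copies in the human genome, so its values are uncertain. In HepG2 the same probe set was at 476 with shRNA6 and 396 with pLKO.

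IFI6, a mitochondrial protein that delays apoptosis, was at 157 with shRNA4 and 122 with shRNA6, against 223 with pLKO, log2 ratios of -0.47 and -0.81. IFI44L was at 64.4 and 24.4, against 76.5, with the control signal close to the array median, log2 ratios of -0.21 and -1.27. IFI44, its neighbour on chromosome 1, was at 555 and 318, against 373, and so lay on opposite sides of the control with shRNA4 and shRNA6. IFI16 was lower with each hairpin on all 3 of its probe sets, between -0.50 and -0.29 (log2). PARP9 and PARP14, ADP-ribosyltransferases of the interferon response, lay between -0.43 and -0.04. The other kept probe set of PARP9 gave -0.59 with shRNA4 and -0.37 with shRNA6. Where a gene had several kept probe sets, they all lay below 0 in 6 of 9 genes with shRNA4 and in 7 of 9 with shRNA6. They disagreed in IFIT5, IRF1 and OAS3 with shRNA4 and in SAMD9 with shRNA6.

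Set directly against shRNA4, the shRNA6 array was lower in 18 of 30 kept members (53.0% of 12234 kept genes), with a median of -0.17 against -0.02 over all genes. At least 2-fold lower was IFI44L alone, at -1.06 (1 of 30, 2.73% of all genes). IFIT1 was 0.81 higher with shRNA6, and IFIH1 was 0.92 lower (log2 ratio -0.92).

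**Figure D3:**
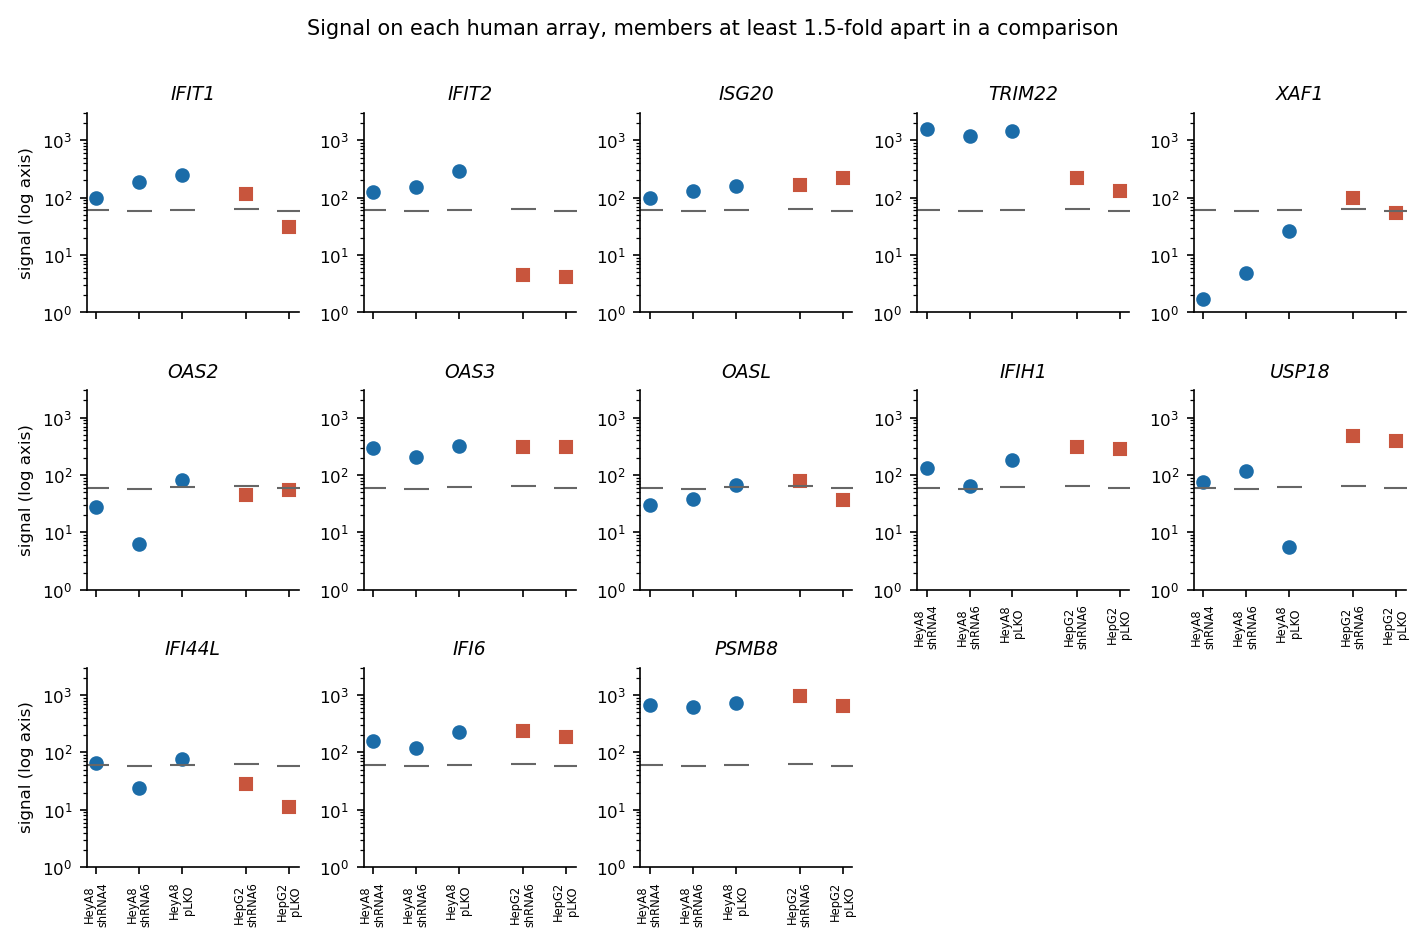
Signal on each of the 5 human arrays (log axis) for the 13 members at least 1.5-fold apart in a human comparison, with HeyA8 as circles, HepG2 as squares and a short grey line at each array's median. IFIT1 runs from 99.5 with shRNA4 to 246 with pLKO in HeyA8, and stands at 115 with shRNA6 and 30.5 with pLKO in HepG2.

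In HepG2 with shRNA6, 25 of all 39 members were above 0 with no filter on low values (50.9% of all genes), at a median of 0.13 against 0.01 over all genes. IFIT1 was the only kept member at least 2-fold higher with shRNA6 (1 of 27, 2.64% of 12155 kept genes), and 0 were 2-fold lower (2.56%). At 1.5-fold 5 of 27 were higher, IFIT1, OASL, XAF1, TRIM22 and PSMB8 (6.44% of all genes), and 0 lower (6.15%). IFIT1, OASL and XAF1 had passed the filter through the shRNA6 array alone, so that they had to be higher, and nothing is read from these counts. Of the 27 members 20 were above 0 (48.3% of all genes) and 7 below (51.7%). The median of the members was 0.23, against -0.01 over all genes. Once the arrays were scaled to equal medians, all genes had a median of -0.12 and the members of 0.12. Relative to all genes the members then stood at 0.25, where they stand at 0.24 without it.

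IFIT1 was at 115 with shRNA6 and 30.5 with pLKO in HepG2, a log2 ratio of 1.56. The control signal lies below the array median of 58.7. OASL was at 78.6 with shRNA6 and 36.7 with pLKO, a log2 ratio of 0.89, and XAF1, an antagonist of an apoptosis inhibitor, at 97.4 and 54.7, a log2 ratio of 0.71. TRIM22 was at 218 with shRNA6 and 132 with pLKO, 0.67, and TRIM21 at 132 and 87.1, 0.54. Of these genes TRIM22 and TRIM21 were above the array median on both arrays. PSMB8, of the immunoproteasome, was at 959 with shRNA6 and 633 with pLKO, a log2 ratio of 0.59, and PSMB9 at 295 and 196, 0.56. TAP1, at 820 with shRNA6 and 747 with pLKO, was at 0.13.

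By role the antiviral effectors of HepG2 had 8 of 10 kept members above 0 (48.3% of all genes) and a median of 0.47. Of the 8, IFIT1 and XAF1 had passed through the shRNA6 array alone and had to be above 0, as had OASL among the RNA sensors. The 3 antigen processing genes had a median of 0.56. MX1 was at 94.3 with shRNA6 and 67.9 with pLKO, MX2 at 862 and 700, and BST2 at 986 and 934. The RNA sensors had a median of 0.10, with OAS3 at 303 with shRNA6 and 305 with pLKO and IFIH1 at 302 and 281. The ISG15 group had a median of -0.02, with ISG15 at 878 with shRNA6 and 890 with pLKO. ISG20 was below its control, at 164 with shRNA6 and 221 with pLKO, although its other kept probe set gave 1.84. Probe sets disagreed in 5 of 8 genes with several kept, IFIT3, IFIT5, ISG20, OAS1 and OAS3. For IFIT3 the brighter probe set gave 0.58 and the other -0.50. Over the 11 members above the 75th percentile the median was 0.078, with 6 above 0.

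The 3 knockdown arrays were then fitted together against their controls with limma, with the cell line as a term. For a common effect 0 of 37 members passed an adjusted p of 0.05 (0.0% of 13925 genes), and at an unadjusted p under 0.05 there were 2 members and 567 genes (4.07%). Those 2 were USP18, with a common log2 effect of 1.58 ± 0.51 (SE, 5 arrays, adjusted p = 0.992), higher in 3 of 3 comparisons, and DDX60, at -0.84 ± 0.35 with the same adjusted p. DDX60 was below the median on both HepG2 arrays. The median common effect was -0.07 over the members and 0.01 over all genes. Its sign depended on the arrays entered. Without the HeyA8 pLKO array it was 0.13, with 25 of 37 members above 0, and without the HeyA8 shRNA6 array 0.01. Without the HeyA8 pLKO array the fit takes the knockdown effect from the HepG2 arrays alone. With 1 or the other HepG2 array left out the median was -0.19, with 31 of 37 below 0, and the effect then comes from HeyA8 alone. Such fits give the effect in 1 cell line and not a common effect.

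The difference of the knockdown effect, HepG2 minus HeyA8, was tested by limma with an interaction term, where the only spread is that between the HeyA8 hairpins. Again 0 of 37 members passed (0.0% of all genes), and 4 members and 613 genes (4.4%) had an unadjusted p under 0.05. The difference was above 0 in 29 of 37 members, with a median of 0.47, against -0.02 over all genes. IFIT1 differed by 2.37, with a 95% interval from 0.63 to 4.10, and PSMB8 by 0.78, with an interval from 0.06 to 1.51. USP18 differed by -2.32 and IFI16, which is dim in HepG2, by 1.42. All 4 had an adjusted p of 0.999, so no difference between the cell lines passed for a member.

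In mouse liver Ifi44l and Oas2 were at least 2-fold lower in the Fas knock-out than in the wild type, 2 of 28 kept members (2.57% of 12039 kept genes), and 0 were 2-fold higher (1.77%). At 1.5-fold 6 were lower, with Ifit2, Stat2, Irf7 and Rsad2 added (7.61% of all genes), and Ube2l6 was higher, 1 of 28 (4.87%). Of the 28 members 21 were below 0 (52.7% of all genes) and 7 above (47.3%). The median of the members was -0.31, against -0.02 over all genes. With no filter 21 of all 30 members were below 0 (52.9% of all genes), at a median of -0.29. Mx2 and Oas3 were below the median on both arrays.

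Ifi44l was at 2.74 in the knock-out and 142 in the wild type, a log2 ratio of -2.80. Another of its probe sets gave 2.03 in the knock-out and 84.6 in the wild type, but the remaining probe set, below the median on both arrays, gave 34.1 in the knock-out and 15.4 in the wild type. Oas2, with a single probe set, was at 27.3 in the knock-out and 196 in the wild type, a log2 ratio of -2.18. Both genes had passed the filter through the wild-type array alone, so that they had to be lower, and nothing is read from the 2-fold count.

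The transcription factors had a median of -0.55, with 3 of 4 below 0. Stat2, the member of ISGF3 that is matched on the mouse arrays alone, was at 140 in the knock-out and 261 in the wild type, a log2 ratio of -0.81, and its other probe set gave -0.39. Irf7, which amplifies the production of type I interferon, was at 709 in the knock-out and 1141 in the wild type, -0.67. Irf9 was at 520 in the knock-out and 705 in the wild type, -0.42. Irf1, which responds mainly to type II interferon, stood at 981 in the knock-out and 934 in the wild type, 0.07.

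Of 9 kept antiviral effectors 8 were below 0, with a median of -0.32. Ifit2 was at 180 in the knock-out and 344 in the wild type (-0.86), Ifit3 at 633 and 944 (-0.56) and Ifit1 at 378 and 475 (-0.32). Rsad2, dim in the human cells, was at 677 in the knock-out and 1052 in the wild type (-0.62), and its other probe sets gave -0.52 and -0.22. Bst2 was above 0, at 4272 in the knock-out and 3783 in the wild type. In the ISG15 group Ube2l6 was at 1012 in the knock-out and 655 in the wild type (0.61) while Usp18 was at 982 and 1448 (-0.55). Parp14 was at 511 in the knock-out and 749 in the wild type (-0.53), and Parp9 at 2541 and 2578. Ifih1 was at 1909 in the knock-out and 1945 in the wild type, and Psmb8 at 1660 and 1758. Probe sets lay all below 0 in 5 of the 9 genes with several kept and disagreed in Eif2ak2, Herc6, Ifi27 and Ifi35.

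Markers of several other liver cells were also lower in the knock-out. All 4 leukocyte markers were lower in the knock-out, with a median of -0.43 and a summed signal of 1636 in the knock-out and 2169 in the wild type, and Ptprc, the leukocyte antigen CD45, was at 593 and 732. Of 7 Kupffer cell and macrophage markers 6 were lower, with a median of -0.19 and sums of 18906 in the knock-out and 22999 in the wild type. Sinusoidal endothelial markers had a median of -0.37 with 3 of 4 lower, neutrophil markers -0.32 with 2 of 3 lower, stellate cell markers -0.13 with 3 of 4 lower, and the 8 hepatocyte markers 0.01. The 3 kept cholangiocyte markers had a median of -1.56, with 2 at least 2-fold lower and 1 at least 2-fold higher, and a summed signal over the list of 211 in the knock-out and 379 in the wild type. The 2 kept NK cell markers were at -1.21 and 0.90, and the 2 kept markers of plasmacytoid dendritic cells had a median of 0.12. Of 6 T cell and 4 B cell markers with a probe set, 1 each was above the median. The part of these cells in the result was not tested, and in whole tissue fewer cells of a type and less RNA per cell cannot be told apart.

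**Figure D4:**
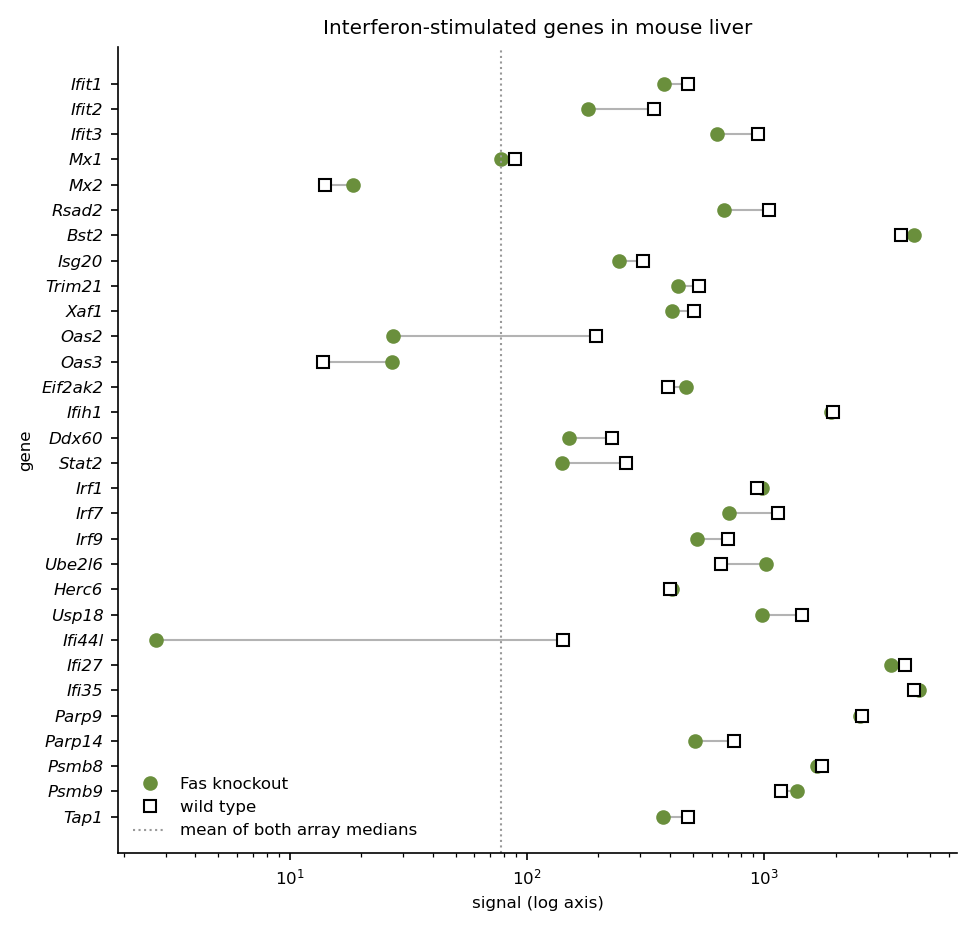
Signal (log axis) of 30 interferon-stimulated genes in the Fas knock-out liver (filled circles) and the wild-type liver (open squares), 1 array each, with the mean of the array medians as a dotted line. The widest gap is that of Ifi44l, at 2.74 in the knock-out and 142 in the wild type, and 21 of 28 kept members lie lower in the knock-out.

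The systems were last compared over the same genes. Of the members 16 were kept in all 4 comparisons. Over these 16 the median was -0.16 with 11 below 0 in HeyA8 with shRNA4, -0.25 with 15 below 0 in HeyA8 with shRNA6, 0.13 with 4 below 0 in HepG2, and -0.18 with 11 below 0 in the liver. IFIT3 had log2 ratios of -0.38, -0.19, 0.58 and -0.56 in that order, and PARP14 -0.20, -0.43, 0.23 and -0.53. IFIT1, IFIH1, IRF9, PARP9 and PSMB8 had the same order of signs, lower in HeyA8 and liver and higher in HepG2. In HepG2 IFIT1 was kept through the shRNA6 array alone, so its direction there was fixed. The share of all genes with this order of signs was not counted. For the PARP9 probe set used no ratio was farther than 0.08 from 0, but its other human probe set gave -0.59, -0.37 and 0.13. ISG20 had log2 ratios of -0.61, -0.26, -0.41 and -0.32. In HepG2 the other kept probe sets gave -0.50 for IFIT3 and 1.84 for ISG20, the latter kept through the shRNA6 array alone. The signs of IFIT3 and ISG20 in HepG2 thus depended on the probe set. Over the 22 members kept in the 3 human comparisons the medians were -0.16 and -0.30 in HeyA8 and 0.13 in HepG2. The HepG2 comparison has its own control array, while the HeyA8 comparisons share theirs.

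**Figure D5:**
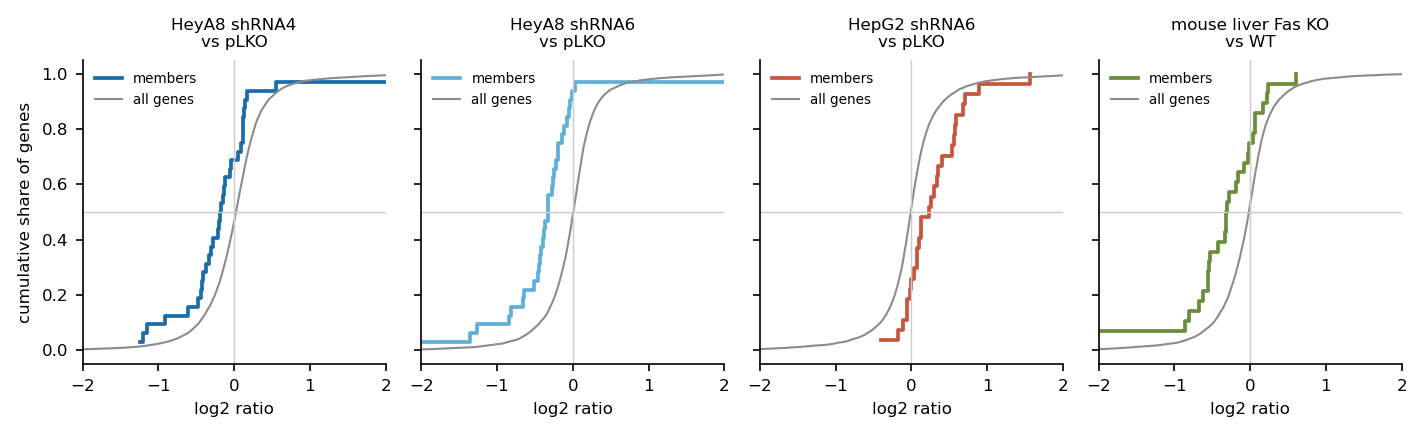
Cumulative share of genes (y axis) by log2 ratio (x axis, drawn from -2 to 2) for the kept interferon-stimulated genes, as thick stepped lines, and for all kept genes, as thin grey lines, in the 4 comparisons. The thick line lies left of the grey one at the median in HeyA8 (-0.18 and -0.33) and in liver (-0.31), and right of it in HepG2 (0.23).

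The rest of the pathway was followed with lists of its own. Of 18 human interferon genes with a probe set, 15 or more were below the median in every human comparison, and of 6 mouse ones 5. In the human cells the kept ones were IFNA17, IFNA10 and IFNL1, all dim. IFNA17 was at 78.3 with shRNA4 and 102 with shRNA6, against 17.5 with pLKO, and its type I paralogs are so alike in sequence that these values are uncertain. IFNA10 stood the other way, at 42.6 with shRNA4 and 25.5 with shRNA6, against 65.7 with pLKO. IFNA17 was kept through the knockdown arrays alone and IFNA10 through the pLKO array alone, so that these had to differ. Of the receptors and JAK-STAT relay 11 of 12 were kept in every comparison, with medians of 0.05 and -0.03 in HeyA8, -0.13 in HepG2 and -0.35 in liver, where 9 of 11 were below 0. Tyk2 was at 230 in the knock-out and 392 in the wild-type liver. JAK2 was at 43.1 with shRNA6 and 104 with pLKO in HepG2, a log2 ratio of -1.07, but it was kept there through the pLKO array alone and had to be lower.

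Of the sensors that act upstream of interferon, STING1, the adaptor of cytosolic DNA sensing, was at 115 with shRNA4 and 154 with shRNA6, against 285 with pLKO in HeyA8, log2 ratios of -1.22 and -0.84. In HepG2 it was at 65.7 with shRNA6 and 27.8 with pLKO, 0.95, and in liver Sting1 was at 73.9 in the knock-out and 109 in the wild type, -0.46. In HepG2 STING1 was kept through the shRNA6 array alone, and in liver Sting1 through the wild-type array alone, so these directions were fixed. The list itself had medians of -0.10 and -0.36 in HeyA8, -0.03 in HepG2 and 0.05 in liver. Other interferon-induced genes had medians of -0.05 over 37 genes and -0.15 over 36 in HeyA8, 0.10 over 33 in HepG2 and -0.13 over 40 in liver. IFITM1, which blocks viral entry, was at -0.75 and -0.89 in HeyA8, -0.98 in HepG2 and -0.67 in liver. TNFSF10, the death ligand TRAIL, was at 521 with shRNA6 and 170 with pLKO in HepG2, 1.55, and CXCL10, an interferon-induced chemokine, at 7.08 with shRNA6 against 64.4 with pLKO in HeyA8, -1.97. CXCL10 was kept there through the pLKO array alone, so that it had to be lower.

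MHC class I presentation genes outside the members had 12 of 14 below 0 with shRNA6 in HeyA8, at a median of -0.23, but 5 of 14 with shRNA4, at 0.13. HLA-B was at 2596 with shRNA6, against 3703 with pLKO. NLRC5, the transactivator of these genes, was at -0.88 with shRNA4 in HeyA8 and at 0.91 in HepG2. With shRNA4 in HeyA8 it was kept through the pLKO array alone, so that it had to be lower. In liver the mouse interferon GTPases and other mouse counterparts had 13 of 20 below 0 and a median of -0.15, with Oas1a at 518 in the knock-out and 781 in the wild type. Ifi203, of the same family as human IFI16, stood the other way at 152 in the knock-out and 28.4 in the wild type, a log2 ratio of 1.82. It was kept through the knock-out array alone, so that it had to be higher.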

How the data were processed

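Affymetrix arrays measured the total RNA of 7 samples, 5 from human cell lines and 2 from mouse livers. The values deposited are linear signal intensities that the authors made with MAS5, per the submitters' processing notes, which name no version or settings. The arrays held 54675 human and 45101 mouse probe sets. Gene names came from the platform annotation, and 41091 human and 34945 mouse probe sets had 1 symbol. A gene was represented by its probe set of highest mean signal, with cross-hybridising _x_at sets used only where there was no other. Log2 ratios used signal plus the 25th percentile of the table, 12.6 in human and 20.6 in mouse. Genes below the array median on every compared array were left out. No detection calls were used.

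Single comparisons have 1 array per group and no test. Members are counted at 2-fold and named at 1.5-fold, and lists name at most 4 kept genes with the largest ratio. Limma 3.58.1 in R 4.3.3 fitted log2 values of all 5 human arrays with cell line and knockdown, with a trended prior variance and 2 residual degrees of freedom, and with an interaction term (1 residual degree of freedom), with Benjamini-Hochberg adjustment over 13925 genes. It was tested on simulated data. Other steps used Python 3.11.15 with pandas 2.3.3, numpy 2.4.6 and matplotlib 3.10.9. The members, the lists, the tests and the alternatives were chosen with earlier results of these data known. Alternatives were other pseudocounts, quantile normalization, equal array medians, other filters, the mean of all probe sets, a 1.5-fold count, a fit without the variance trend, a fit without the cell line, and fits that leave out each array.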

Additional observations from a re-analysis of the deposited data

Results flagged for a closer look

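Of the 22 members kept in every human comparison, 9 lay below their control on both HeyA8 knockdown arrays and above it on the HepG2 knockdown array. Over all genes kept in these comparisons it was 1493 of 10393 (14.4%). For these the difference of the knockdown effect, HepG2 minus HeyA8 on the log2 scale, was 2.37 for IFIT1, 1.67 for OASL, 1.0 for IFIH1, 0.98 for IFI6, 0.86 for IFIT3, 0.78 for PSMB8, 0.54 for PARP14, 0.47 for IRF9 and 0.13 for PARP9. None passed limma's interaction test, where the adjusted p was 0.999 for each. IFIT1 and OASL were kept in HepG2 through the shRNA6 array alone, and OASL in HeyA8 through the pLKO array alone. These directions were fixed. For IFIT3 the other kept probe set gave -0.50 in HepG2. The HeyA8 comparisons share 1 control array, so a high signal there lowers both, and nothing is read from the count.

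The median over the 22 members kept in every human comparison was 0.36 higher in HepG2 than the mean of both HeyA8 medians, and this difference was not tested.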

How the results depend on the processing

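The median common effect over the members turned, to 0.024 without the cell line as a term, 0.032 with the stricter filter, 0.01 without the HeyA8 shRNA6 array and 0.13 without the HeyA8 pLKO array. The fit without the HeyA8 pLKO array takes the knockdown effect from HepG2 alone, so its value is not a common effect. No median of a single comparison, and no member named at 1.5-fold or called between the cell lines, turned under the alternatives run. The median difference of the knockdown effect was 0.21 with the stricter filter. With the pseudocount at the median, members at least 2-fold lower numbered 0 with shRNA4 and 1 with shRNA6 in HeyA8, and 0 were higher in HepG2. With no filter on low values 2 were higher in each human comparison and 1 lower in HepG2, where the median was 0.13. With the stricter filter at the 75th percentile, the members below 0 numbered 8 for shRNA4 and 9 for shRNA6, 6 were above 0 in HepG2, 0 were 2-fold apart in any comparison, and the medians were 0.078 in HepG2 and -0.19 in liver. Fewer members enter there. Arrays scaled to equal medians gave a median of 0.12 in HepG2 and 2 genes, no member, for the common effect. The mean of all probe sets gave 1 lower with shRNA6 and 2 higher in HepG2. Counted at 1.5-fold, 5, 7 and 6 members were lower with shRNA4, with shRNA6 and in liver, and 5 in HepG2 and 1 in liver were higher. A filter on the mean of both arrays, chosen after seeing the data, gave 0 higher with shRNA4, 1 lower with shRNA6 and 1 lower in liver. Between the cell lines 15 members passed with the stricter filter, and between 16 and 24 members and 5459 and 8041 genes when an array was left out. For the common effect leaving out an array gave 0 members and 0 genes. The cause of these moves was not tested beyond the number of genes or arrays entering.

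Of 289 values for members called between the cell lines 275 kept their call and 14 did not. No paired analysis was possible because the labels give no replicate numbers and each group holds 1 array. Depth here is signal over background, and no detection call limits it from below, so dim genes such as OAS2, IFI44L, USP18 and OASL in HeyA8 and IFIT1 in the HepG2 control are the least certain.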
